A study of Mus musculus with 6 samples.

Results

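The miRNAs described here are the late-registered mouse miRNAs, those numbered 1000 or higher, that an Agilent miRNA array detected in the mouse left ventricle. Of 1881 miRNAs on the array, 1062 (56.5%) carry such a number, and 73 of these (6.87%) were called detected by the scanner software on all 6 arrays. Leaving out 8 very GC-rich ones named further on gave 65 members. The members were thus selected on the measured detection calls, and their being detected is no result. The same call was made on all 6 arrays for 194 of the 819 miRNAs numbered below 1000 or belonging to let-7 (23.7%), while 953 of the late-numbered ones (89.7%) were detected on none.

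The RNA came from left ventricles of male C57BL/6 mice given either vehicle (control, 3 samples) or sunitinib, a tyrosine kinase inhibitor used against cancer (3 samples). The study asks which cardiac miRNAs differ under sunitinib, and its title names miR-146a and cardiac dysfunction. Each sample was labelled with Cy3 and hybridised alone, from 200 ng of total RNA. The labels used here give no dose, duration or age, and do not say that each sample is its own animal, so p-values measure the spread between these samples, which may be partly technical.

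A miRNA is a short RNA cut from a hairpin, and it guides Argonaute proteins to messenger RNAs that match its seed, the bases just behind its 5′ end. miRNAs were numbered in order of registration, so low numbers went to the abundant, widely conserved families, and high numbers mostly to sequences found later by deep sequencing. Some of those are mirtrons, short introns that splicing itself releases as a hairpin, and others overlap repeats or other small RNAs.

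Mature sequences were taken from RefSeq (assembly GRCm38.p6), which held 58 of the 65 members. miR-1839-3p, miR-1949, miR-3470a, miR-5107-5p, miR-6360, miR-6378 and miR-7042-5p are given by name. In all sequences capitals mark the seed, bases 2 to 8. The first 3 are shown because they have the letters AUCCCA in common and include the members with the strongest signal.
miR-3963: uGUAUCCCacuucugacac
miR-3968: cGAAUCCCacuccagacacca
miR-5100: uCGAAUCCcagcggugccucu
miR-3963 lies at chr3:151023839-151023857 on the minus strand. miR-3968 lies at chr11:115447969-115447989 on the minus strand, within the span of Trim80. miR-5100 lies at chr11:60728698-60728718 on the plus strand, within the span of Mief2. AUCCCA, read on the miRNA strand, was found in 3 of the 58 members (5.17%), in 0 of 161 detected miRNAs below 1000 with a RefSeq sequence, and in 7 of all 1679 RefSeq mature miRNAs (0.417%). The letters were taken from these 3 members, so the share among members is set by that choice and is no result. As background, tRNAs carry closely related letters in their T arm.

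Of 58 members, 4 shared a whole seed with another member, in 2 pairs, and none shared one with a detected miRNA below 1000.
miR-6975-5p: gCUGGGGAgaaagggguuuggca
miR-7005-5p: cCUGGGGAugggaggaccagca
miR-6965-5p: aGAGGGAGgcuauugggcaggaga
They lie within the spans of Ddx39b (chr17:35244080-35244102, plus strand), Lama5 (chr2:180179797-180179818, minus) and Ccnf (chr17:24240919-24240942, minus). Lama5 encodes a laminin of basement membranes. The first 2 form a pair, and miR-6965-5p is paired with miR-7047-5p, which also had 13 bases in common with miR-6937-5p.

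The next 4 are shown because their array pattern, given further on, differed from that of the other members. miR-3102-3p, the other arm of the miR-3102 hairpin, is set below its partner.
miR-1839-5p: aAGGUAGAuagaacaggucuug
miR-3069-3p: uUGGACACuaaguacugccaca
miR-6516-3p: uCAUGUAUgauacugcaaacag
miR-3102-5p: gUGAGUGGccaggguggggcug
miR-3102-3p: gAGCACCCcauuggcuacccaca
Both arms of miR-3102 lie on the minus strand within the span of Arhgef17, at chr7:100882388-100882409 for the 5p arm and chr7:100882307-100882329 for the 3p arm. miR-1839-5p lies at chr7:81529919-81529940 (plus), miR-3069-3p at chr12:105031078-105031099 (minus) and miR-6516-3p at chr11:117077412-117077433 (plus), none within a protein-coding gene span.

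Other members overlap each other or a classical family in sequence with a shifted start. miR-3473a and miR-3473b have 16 bases in common, and miR-3962 has 17 bases in common with let-7g-5p, starting at base 1 of miR-3962 and base 3 of let-7g-5p, so that their seeds differ.
miR-3473a: uGGAGAGAuggcucagca
miR-3473b: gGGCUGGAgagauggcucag
miR-3962: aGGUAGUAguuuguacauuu
let-7g-5p: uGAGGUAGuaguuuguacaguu
The letters that the miR-3473 pair have in common also occur, as background, in the mouse B2 repeat. miR-3962 was not well above background on any array. Its probe covers all 20 bases of it, the stretch in common with let-7g-5p included, and binding of let-7g-5p to that probe was not tested.

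A run of 25 members numbered from miR-6769b to miR-7118 had features of their hairpins in common, and 23 are 5p arms and 2 are 3p arms. All 24 of these with a RefSeq entry lay within a protein-coding gene span. Such a span held 42 of all 58 members (72.4%), these 24 included, and 84 of 161 detected miRNAs below 1000 (52.2%). All 24 had a hairpin ending in AG, the last letters of an intron. Over all 54 members with a hairpin the share ending in AG was 51.9% (28). It was 8.61% of 151 detected hairpins below 1000 and 23.8% of all 997 RefSeq hairpins. Of the 28, 24 belong to this run, so the members' share comes mostly from it. A hairpin that also opens with GU, the first letters of an intron, was found for 6 of the 54 members (11.1%), for 1 of the 151 (0.662%) and for 30 of the 997 (3.01%). The miR-6944 hairpin is such a case and is shown with those ends in capitals. Its first 23 bases are miR-6944-5p.
miR-6944 hairpin: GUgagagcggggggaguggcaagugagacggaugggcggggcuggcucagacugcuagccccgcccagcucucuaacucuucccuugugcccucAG
It lies at chr13:55477681-55477776 on the minus strand, within the span of Dbn1, the gene of the actin-binding protein drebrin. RefSeq gene spans were used here, so exons and introns were not told apart.

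Members were richer in G and C than the detected miRNAs numbered below 1000. Their mature sequences had a median of 62.2% G and C (30.0 to 85.7%, 58 members), against 45.8% (27.3 to 68.2%, 161 miRNAs), and a median of 45.2% G against 22.7%. The letters GGGG were found in 22 of 58 members (37.9%), in 5 of 161 (3.11%) and in 188 of all 1679 mature miRNAs (11.2%). On arrays of this kind, probes for GC-rich targets are made shorter to level their melting temperatures. The brightest probe of a member had a median length of 14 bases and 64.3% G and C, and that of a miRNA below 1000 had 18 bases and 47.6%. The probe matched the 3′ end of the mature RNA for all 58 members and for 159 of 161 miRNAs below 1000 (98.8%). It covered the whole seed for 1 of the 58, miR-3962, against 31 of 161 (19.3%). Probes therefore read the 3′ part of nearly every member, and other small RNAs with the same 3′ letters would be read too.

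All 6 arrays lay on 1 slide, with 288 to 309 miRNAs detected and 234 to 252 well above background per array, meaning that the signal exceeded background by over 13 times its SD. Markers matched the tissue label. Cardiomyocyte miR-1a-3p (15.86 to 15.99 in control, 15.95 to 16.01 in sunitinib, log2 signal), miR-133a-3p, miR-208a-3p and miR-499-5p were well above background on all arrays, and liver miR-122-5p and brain miR-124-3p and miR-9-5p were detected on 0 arrays. Endothelial miR-126a-3p (difference -0.02, sunitinib minus control) did not pass the test. Neither did red-cell miR-451a (0.19) and miR-144-3p (-0.1), nor smooth-muscle miR-143-3p (-0.07) and miR-145a-5p (-0.23). Myeloid miR-223-3p (-1.32, limma adjusted p = 0.000865) and blood-cell miR-142a-3p (-0.64, adjusted p = 0.0198) fell in sunitinib hearts. In bulk tissue, fewer cells of a type and less RNA per cell cannot be told apart. Sunitinib replicates 1 and 2 lay in slide row 1, and the other 4 samples in row 2. Row 1 thus held no control, so row and treatment cannot be fully told apart. A difference within slide row 2, as given below, sets sunitinib replicate 3 alone against the control mean and has no spread in sunitinib.

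Before groups are compared, a property of the arrays has to be given, because it touches most members. Of the 65 members, 45 were well above background on all 6 arrays. In each of these, an array's deviation is its log2 value minus that miRNA's mean over the 6 arrays. The median deviation was -0.32 on the array of sunitinib replicate 1 and 0.27 on that of sunitinib replicate 2. It was -0.04 for sunitinib replicate 3 and -0.02, -0.04 and 0.10 for control replicates 1 to 3. So 40 of 45 members were below their own mean in sunitinib replicate 1 and 44 of 45 were above it in replicate 2, although both received the same treatment. Over the 171 miRNAs below 1000 that were well above background on all arrays, the 6 medians ran from -0.05 to 0.03. The arrays were scaled on probes well above background on all arrays, those of these miRNAs among them. Medians near 0 are therefore partly set by the scaling.

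**Figure D1:**
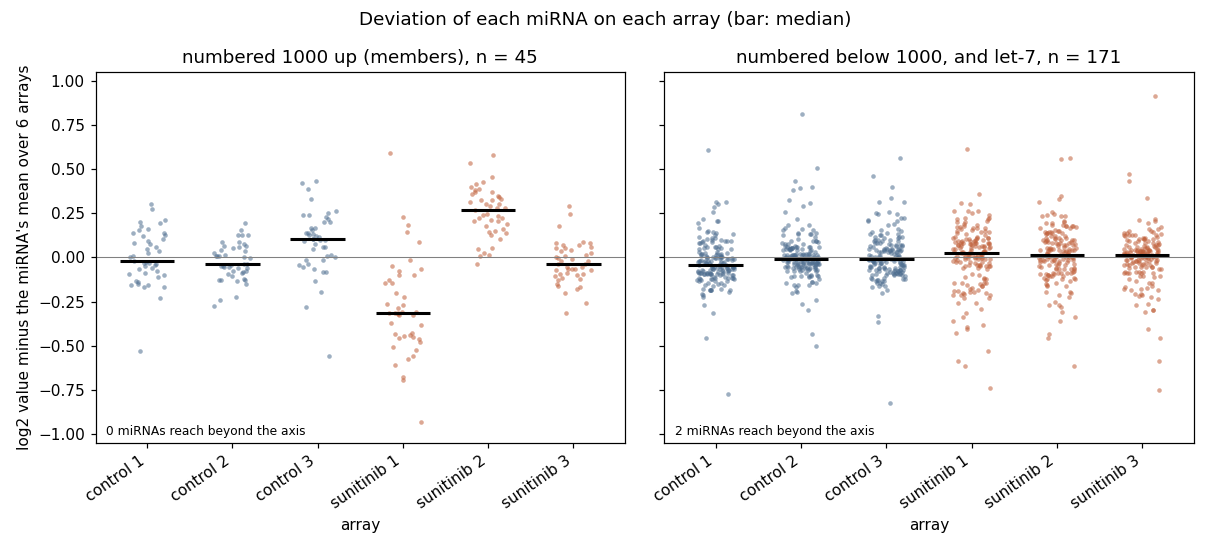
Deviation of each miRNA on each array (log2 value minus the miRNA's mean over 6 arrays) for 45 members on the left and 171 miRNAs below 1000 on the right, with 1 point per miRNA and the median as a bar. In the left panel the bar lies at -0.32 for sunitinib replicate 1 and at 0.27 for replicate 2. In the right panel all 6 bars lie between -0.05 and 0.03, which is partly set by the scaling.

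The difference between these sunitinib replicates, 2 minus 1, had a median of 0.56 over the 45 members (-0.18 to 1.06), and replicate 2 was the higher in 41. Over the 171 miRNAs below 1000 the median was 0.0027 (-1.84 to 1.30), replicate 2 was the higher in 86, and 4 reached the members' median. Sunitinib replicate 1 was the lowest of the 6 arrays in 32 of 45 members and replicate 2 the highest in 31, with both true of 24. The same was true of 31, 41 and 10 of the 171. This comparison of arrays was chosen after its values were seen and has no test. Its size depended on the scaling, since without any scaling the medians were 0.25 over members and -0.30 over the others. The gap between the 2 medians was 0.56 as scaled here, 0.55 without scaling, 0.34 after normexp background correction, which draws dim signals together, and 0.41 in the authors' deposited table.

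Members read by long probes did not follow the pattern. In the 40 members read by a probe of up to 16 bases the median of replicate 2 minus replicate 1 was 0.61, and it was above 0 in 39. In the 5 members with a longer probe it was -0.13 (-0.18 to 0.28), above 0 in 2. The miRNAs below 1000 had medians of 0.15 with a probe of up to 16 bases (39 miRNAs, above 0 in 28) and -0.04 with a longer one (132 miRNAs). The Spearman correlation of this difference with probe length was -0.33 across the 45 members and -0.38 across the 171 others, and with the probe's G and C share 0.18 and 0.36; the points come from the same arrays, miRNAs are not independent replicates, and length and composition go together. With probes of up to 16 bases the members' median was thus the larger, and with longer probes the smaller. By signal, the members' median was 0.64 in 33 members whose highest control value was under 6 and 0.49 in the 12 brighter ones. What the pattern comes from was not tested. Both arrays lie in slide row 1, and the amount and integrity of the RNA in each sample are not analysed here.

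**Figure D2:**
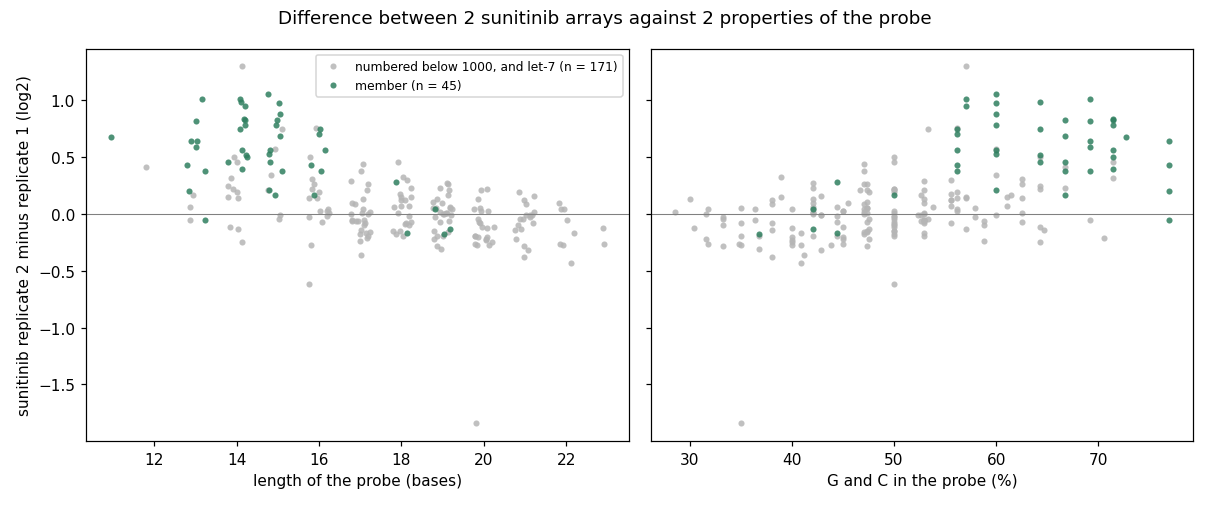
Sunitinib replicate 2 minus replicate 1 (log2) against the probe's length in bases on the left and its share of G and C on the right, 1 point per miRNA, with 45 members in green and 171 miRNAs below 1000 in grey. Green points lie mostly above 0, with a median of 0.61 for probes of up to 16 bases and -0.13 for the 5 members with longer probes.

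The exceptions were the 4 members printed above. miR-6516-3p, miR-3069-3p and miR-1839-5p have probes of 19, 18 and 19 bases, and replicate 2 minus replicate 1 was -0.18, -0.17 and -0.13 in them. miR-3102-5p had a difference of -0.05 although its probe of 13 bases has 76.9% G and C. At the other end, miR-7058-5p had 1.06, miR-3081-5p and miR-1897-3p 1.01 each, and miR-7042-5p 0.99. In the run from miR-6769b to miR-7118, all 15 members well above background on 6 arrays had replicate 2 above replicate 1, by 0.38 to 1.06 (median 0.69). The 8 very GC-rich miRNAs left out of the membership, with probes of 10 to 12 bases and a median of 87.1% G and C, had a median of 0.15.

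In the comparison of sunitinib with control, no member passed the test. Of the 65 members, 51 could be tested, 45 that were well above background on all arrays and 6 that were so on all arrays of 1 group only (miR-5107-5p, miR-5119, miR-6944-5p, miR-6975-5p, miR-7022-3p and miR-7045-5p). The limma fit called 0 of 51 at an adjusted p of 0.05, where 3.38% of all 237 tested miRNAs were called, and an unadjusted p under 0.05 was found for 4, 2 higher and 2 lower, where 19.0% of all were. The authors' deposited table, fitted the same way, also called 0 of 51, where it called 3.8% of all. The rule for membership left out the 3 late-numbered miRNAs that were called, so nothing is read from the count of 0. With the scaling percentile taken over all probes miR-3102-5p passed (0.77, adjusted p = 0.0021), and with the probes' signal summed miR-5128 did (0.69, adjusted p = 0.0417), against 0.13 for miR-5128 in the fit reported here.

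Differences were small and lay on both sides of 0. The median difference of the 51 members, sunitinib minus control on the log2 scale, was -0.03 (-0.45 to 0.75), with 18 above and 33 below 0 and 44 under 0.3 in size. The median over all 237 tested miRNAs was 0.02, with 125 above 0. The members' median SE of 0.16 was larger than the 0.08 of the 177 tested miRNAs below 1000, as was the within-group SD (median 0.24 against 0.09 over those well above background on 6 arrays). The sign of the members' median hung on single arrays: it was 0.13 without sunitinib replicate 1, -0.18 without sunitinib replicate 2 and 0.01 without control replicate 3, and it was near 0 on either side after normexp (0.00076) and quantile normalization (-0.0006).

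**Figure D3:**
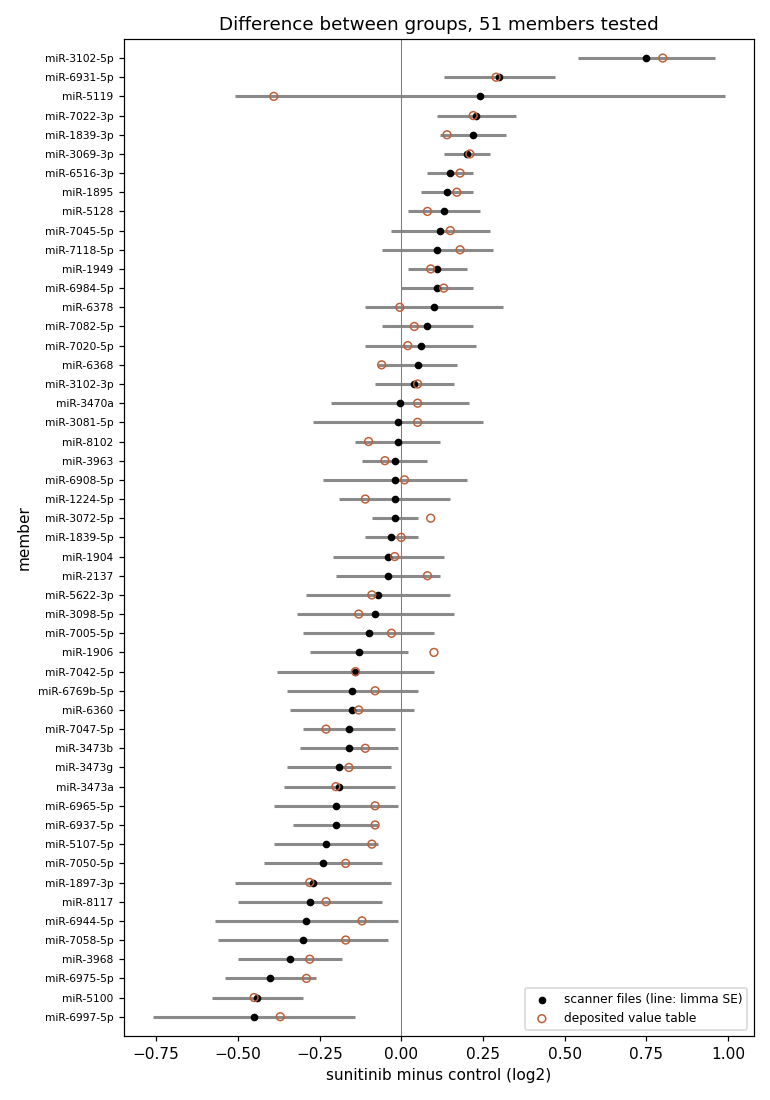
Sunitinib minus control (log2) for the 51 tested members, ordered by the difference, as black points with the limma SE as a line, and the authors' deposited values as open circles. Most lie within 0.3 of 0 on both sides; miR-3102-5p lies highest at 0.75 and miR-6997-5p lowest at -0.45.

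miR-3102-5p had the highest difference of the tested members. Its log2 signal was 4.56, 5.05 and 4.54 in control and 5.68, 5.63 and 5.10 in sunitinib, each in the order of the replicate numbers, as in all such values here. All sunitinib samples were above all control samples, the nearest by a narrow margin between sunitinib replicate 3 and control replicate 2. The means were 4.72 ± 0.29 and 5.47 ± 0.32 (SD, n = 3 each), a difference of 0.75 (SE 0.21, limma adjusted p = 0.116), or 1.69-fold. Its second probe gave 0.85, and the difference was 0.80 in the authors' deposited table (adjusted p = 0.0727). The difference was 0.38 over the 4 samples of slide row 2 and 0.30 after normexp. Its partner arm miR-3102-3p, cut from the same hairpin, had 3.88, 4.05 and 3.98 in control and 3.77, 4.19 and 4.07 in sunitinib, with overlapping groups and a difference of 0.04 (SE 0.12, adjusted p = 0.882).

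The long-probe members included the other pair whose groups did not overlap upward. Sunitinib samples were all above control samples in 3 tested members (18.1% of all tested miRNAs had this), miR-3102-5p, miR-3069-3p and miR-6516-3p. miR-3069-3p had 4.43, 4.40 and 4.44 in control and 4.75, 4.58 and 4.55 in sunitinib, where control samples lay close together and sunitinib replicate 1 was highest. Its difference was 0.20 (SE 0.07, limma adjusted p = 0.234), and 0.13 within slide row 2. miR-6516-3p had 4.13, 4.16 and 4.06 in control and 4.38, 4.20 and 4.24 in sunitinib, a difference of 0.15 (SE 0.07, limma adjusted p = 0.297) whose groups were parted by less than the SD of either. In both, normexp left under 0.1 (0.08 and 0.06).

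Arms of miR-1839 were read by probes of the same length, 19 bases. miR-1839-3p had 4.71, 4.87 and 4.53 in control and 4.95, 4.99 and 4.82 in sunitinib, with control replicate 2 above sunitinib replicate 3, and a difference of 0.22 (SE 0.10, limma adjusted p = 0.301). miR-1839-5p had 5.09, 5.23 and 5.04 in control and 5.19, 5.07 and 5.01 in sunitinib, with overlapping groups and a difference of -0.03 (SE 0.08, adjusted p = 0.882). The difference between the arms was not tested.

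Other members with a positive difference overlapped between groups. miR-6931-5p had 4.46, 4.16 and 4.24 in control and 4.23, 4.79 and 4.73 in sunitinib, where sunitinib replicate 1 lay among the controls (0.30, SE 0.17, limma adjusted p = 0.377). miR-7022-3p, a 3p arm well above background on 4 arrays, had 3.37, 3.59 and 3.54 in control and 3.52, 3.88 and 3.79 in sunitinib (0.23, SE 0.12, adjusted p = 0.327).

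Of the members with the letters AUCCCA, miR-5100 and miR-3968 were lower in most sunitinib samples without passing the test, and miR-3963 had nearly equal means. miR-5100 had 11.20, 11.14 and 11.47 in control and 10.67, 11.07 and 10.73 in sunitinib. The groups did not overlap, with sunitinib replicate 2 just under the lowest control. Its means were 11.27 ± 0.18 and 10.82 ± 0.21 (SD, n = 3 each), a difference of -0.44 (SE 0.14, limma adjusted p = 0.161), or 1.36-fold lower. The difference was -0.54 within slide row 2, -0.43 with its second probe, -0.43 after normexp and -0.45 in the authors' deposited table (adjusted p = 0.0915).

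miR-3968 followed a like course at each array: 11.16, 11.17 and 11.49 in control and 10.67, 11.23 and 10.90 in sunitinib, where sunitinib replicate 2 rejoined the controls. Its difference was -0.34 (SE 0.16, limma adjusted p = 0.313), and -0.37 within slide row 2. miR-3963 had 14.27, 14.45 and 14.56 in control and 14.29, 14.46 and 14.47 in sunitinib, a difference of -0.02 (SE 0.10, adjusted p = 0.922). Its highest and lowest values were both from control samples.

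The seed-sharing members were each lowest in sunitinib replicate 1, as were 32 of the 45 members well above background on all arrays. miR-6975-5p was the second of 2 tested members whose sunitinib samples all lay below control (9.28% of all tested miRNAs had this), with 3.84, 4.06 and 4.13 in control and 3.33, 3.82 and 3.70 in sunitinib. Its difference was -0.40 (SE 0.14, limma adjusted p = 0.234), -0.31 within row 2 and -0.05 after normexp. It entered the test through its control samples alone and lay near background. miR-7005-5p, with the same seed, had 4.80, 4.64 and 4.80 in control and 4.24, 5.07 and 4.63 in sunitinib, so that sunitinib replicates held both its lowest and its highest value (-0.10, SE 0.20, adjusted p = 0.83).

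The other seed pair repeated the order of the sunitinib arrays. miR-6965-5p had 5.04, 5.23 and 5.32 in control and 4.64, 5.39 and 4.97 in sunitinib (-0.20, SE 0.19, limma adjusted p = 0.641). miR-7047-5p had 7.11, 7.21 and 7.40 in control and 6.85, 7.31 and 7.09 in sunitinib (-0.16, SE 0.14, adjusted p = 0.599). miR-6937-5p, which overlaps miR-7047-5p over 13 bases, had 5.98, 6.06 and 6.17 in control and 5.64, 6.10 and 5.86 in sunitinib (-0.20, SE 0.13, adjusted p = 0.452).

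**Figure D4:**
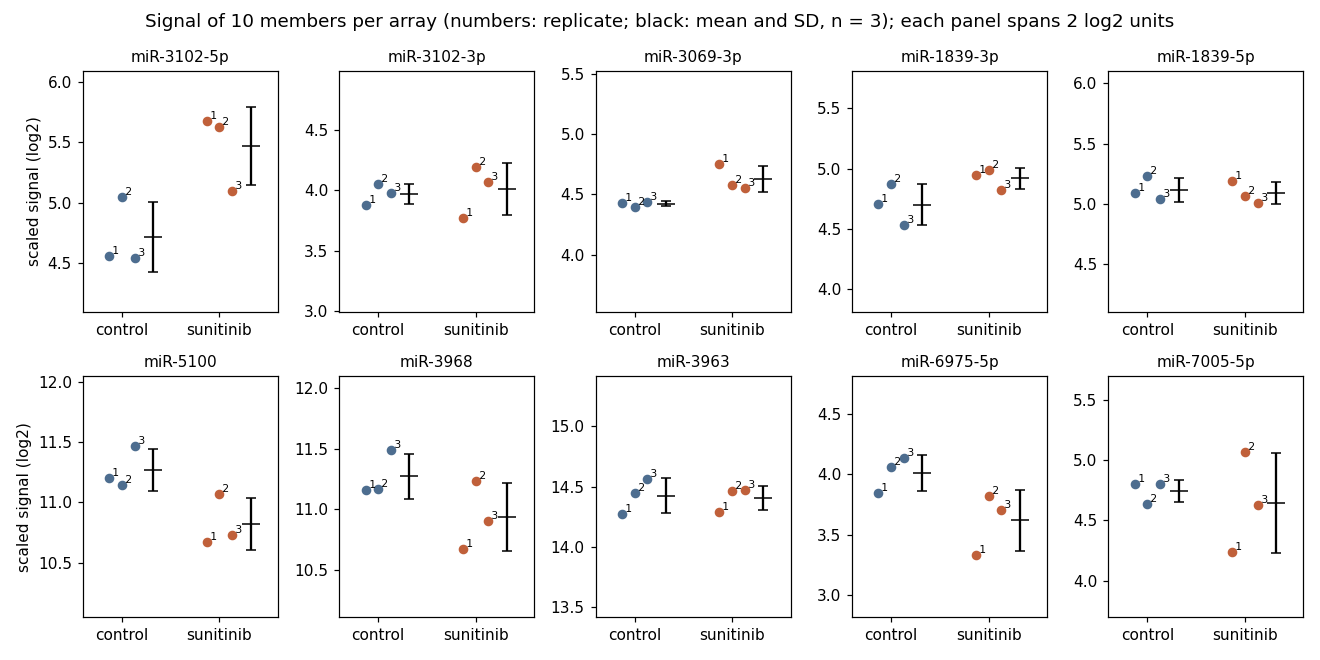
Scaled log2 signal of 10 members on each array, control in blue and sunitinib in orange with the replicate number beside each point, and the mean and SD (n = 3) in black; each panel spans 2 log2 units. The sunitinib points of miR-3102-5p and miR-3069-3p lie above their controls and those of miR-5100 and miR-6975-5p below, while miR-7005-5p has its lowest point in sunitinib replicate 1 and its highest in replicate 2.

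The members with the strongest signal besides the AUCCCA set were miR-1224-5p, miR-8117 and miR-3473g; array signal depends on the probe as well as on the RNA. miR-1224-5p, a known mirtron of the Vwa5b2 gene (probe at chr16:20604536-20604545 in mm9, per the file headers' build), had 8.73, 8.61 and 8.74 in control and 8.36, 9.03 and 8.63 in sunitinib. Its group means differed by -0.02 (SE 0.17, limma adjusted p = 0.957) while its sunitinib samples spanned more than its controls. miR-8117 had 8.44, 8.26 and 8.46 in control and 7.64, 8.52 and 8.16 in sunitinib (-0.28, SE 0.22, adjusted p = 0.546). miR-3473g had 8.11, 8.40 and 8.51 in control and 7.93, 8.45 and 8.07 in sunitinib (-0.19, SE 0.16, adjusted p = 0.599). miR-3473a and miR-3473b carry the same number but had no stretch of at least 12 bases in common with miR-3473g. Their differences were -0.19 and -0.16. In all of these sunitinib replicate 1 was lowest of the 6 arrays, as in 32 of the 45 members well above background throughout.

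Wide spread within a group was found in miR-5119, miR-6997-5p and miR-6944-5p. miR-5119 had 3.11, 5.72 and 3.34 in control and 3.66, 5.09 and 4.14 in sunitinib, so that 1 sample of each group, replicate 2, was high, and the means were 4.05 ± 1.44 and 4.30 ± 0.73 (SD, n = 3 each), a difference of 0.24 (SE 0.75, limma adjusted p = 0.882). miR-6997-5p had 4.94, 4.58 and 5.07 in control and 3.71, 4.66 and 4.89 in sunitinib. Sunitinib replicate 1 lay below all other samples, and the difference was -0.45 (SE 0.31, limma adjusted p = 0.501) over all samples and 0.02 within slide row 2. miR-6944-5p, whose hairpin is printed above, had 4.08, 3.96 and 4.13 in control and 3.15, 4.33 and 3.81 in sunitinib (-0.29, SE 0.28, adjusted p = 0.633).

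The 14 members that could not be tested lay near background, 8 of them not well above background on any array. The 3 dimmest were miR-3085-3p (2.98, 2.95 and 3.13 in control, 2.78, 3.30 and 3.04 in sunitinib), miR-6236 (2.98, 3.07 and 3.19 against 3.01, 3.19 and 3.07) and miR-6943-3p (3.05, 2.96 and 2.97 against 3.28, 3.32 and 3.25). The sunitinib samples of miR-6943-3p were all above its controls, by 0.29 in the means, but none was well above background, so no fold is given. miR-5107-5p was tested and had 3.98, 3.75 and 3.99 in control and 3.32, 3.83 and 3.87 in sunitinib (-0.23, SE 0.16, limma adjusted p = 0.5).

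By number, the classes differed little in the treatment comparison. Members from miR-1187 to miR-1949 had a median difference of -0.02 (8 tested, 3 above 0), those from miR-2137 to miR-3968 -0.02 (13 tested, 3 above 0) and those from miR-5100 to miR-5622-3p -0.07 (5 tested, 2 above 0). Those from miR-6236 to miR-7118-5p had -0.10 (23 tested, 10 above 0) and those from miR-8102 to miR-8117 had -0.15 (2 tested, 0 above 0). For the replicate difference in sunitinib, the medians in the same order were 0.39, 0.56, 0.40, 0.69 and 0.55 over 8, 13, 3, 19 and 2 members well above background on all arrays.

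At the edge of membership, 4 late-numbered miRNAs were detected on 5 of 6 arrays and stayed outside. miR-3082-5p, miR-6538, miR-7070-5p and miR-7241-5p had means over the arrays of 3.40, 3.54, 3.04 and 2.98, beside 3.03 for miR-3085-3p just inside. The 8 miRNAs left out by name were miR-2861 (difference 0.37, limma adjusted p = 0.0375), miR-3960 (0.77, 0.0375), miR-5126 (0.65, 0.0377), miR-8101 (0.59, 0.0881), miR-8110 (0.35, 0.116), miR-7686-5p (-0.19), miR-6366 (-0.05) and miR-3620-3p (0.03).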

How the data were processed

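The deposited scanner files hold spot intensity on a linear scale, background-subtracted by Agilent Feature Extraction (10.7.1.1 per the file headers, 10.7 per the submitters' processing notes). The deposited value table holds log2 values with scaling and centring not given in the sources used here, and served as an alternative. Outlier and control spots were left out. Signal was scaled per array to the 75th percentile of those 393 probes that exceeded the background limit on all arrays (in at least 50% of their spots). It was floored at 1, converted to log2 and averaged over a probe's spots. Each miRNA was read from its brightest probe and tested where every array of a group had that probe above the limit. These 237 entered limma 3.58.1 (R 4.3.3), with p-values adjusted by Benjamini-Hochberg over all of them and a threshold of 0.05.

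The members, lists and tests were chosen with earlier results of these data known. Named are up to 6 tested members per direction by unadjusted p, the 6 with the highest and 3 with the lowest mean signal, the 3 with the widest within-group SD, those sharing a seed and those with both arms detected. The other members named, in the comparison of sunitinib replicates, were chosen after their values were seen. On simulated data for this comparison (237 miRNAs), the fit recovered 73.7%, 91.8% and 97.8% of changes of 1.5-fold, 2-fold and 4-fold. False calls per run were 0.86, 1.12 and 1.28. In each run 20 changed miRNAs were picked from all 237, with noise drawn separately per miRNA and no shift shared by an array. Recovery among members, whose spread was wider and moved together by array, was not computed, so these shares do not apply to them. Alternatives covered background correction, scaling, probe summary, filter, array weights, blocks and leaving out each sample. Stretches of at least 12 identical bases counted as shared. The number of arrays limits the precision.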

Additional observations from a re-analysis of the deposited data

How the results depend on the processing

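Of 18 alternatives, members passed the test only with the percentile over all probes (1 higher) and with summed signal (1 higher), and otherwise 0 did in either direction. Over all tested miRNAs, 4 higher and 4 lower became 2 and 2 with normexp, 8 higher with the percentile over all probes, 0 higher with quantile normalization, 1 higher without scaling, 7 lower with a probe mean, 7 and 2 with summed signal, 0 higher without a filter, 7 lower with array weights, and 0 and 1 with slide row as a block. Leaving out 1 sample gave 0 to 12 higher and 2 to 5 lower, the 12 without sunitinib replicate 2. With the replicate number as a block there were 0 higher and 2 lower, and 0 members. Same-numbered samples deviated with correlations of 0.176, 0.217 and -0.055, so the numbers were not taken to pair them. Sunitinib replicate 2 minus replicate 1, whose alternatives were chosen after seeing the data, was 0.25 over members and -0.30 over the others without scaling, and 0.33 to 0.54 over members otherwise.

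Among the tested members named for their p, signal, spread, seed or arms, 10 changed sign under at least 1 alternative. miR-6997-5p with the lowest difference (-0.45) was among them, and the cause was not tested. Members named only for other reasons were not counted. With normexp, miR-5119 had -0.0018 and miR-1839-5p 0.01. With the percentile over all probes, miR-3963 had 0.0034 and miR-1224-5p 0.00054, and with quantile normalization miR-1839-5p had 0.01. With the mean of probes, miR-3963 had 0.01, miR-5119 -0.34, miR-7005-5p 0.003 and miR-3102-3p -0.15. With summed signal, miR-6937-5p had 0.02, miR-3963 0.01 and miR-1839-5p 0.09. miR-3963 had 0.03 with array weights and 0.05 with slide row as a block, where miR-6997-5p had 0.02. In the deposited table miR-5119 had -0.39. Leaving out 1 sample gave -0.23 to 1.07 for miR-5119, -0.02 to 0.19 for miR-3102-3p, -0.06 to 0.03 for miR-1839-5p, -0.10 to 0.07 for miR-3963, -0.17 to 0.16 for miR-1224-5p, -0.55 to 0.04 for miR-6944-5p, -0.27 to 0.01 for miR-6965-5p and -0.28 to 0.13 for miR-7005-5p. miR-3102-5p ran from 0.30 to 0.94 (adjusted p 0.0021 to 0.752) and miR-5100 from -0.54 to -0.34 (0.0501 to 0.525), always with their sign. Signal over background limits the 20 members not well above it on all arrays.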

Other observations

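Some late-numbered miRNAs outside the membership were detected on most arrays of 1 group. miR-5110 was detected on 1 control and 3 sunitinib arrays. Its log2 signal was 1.73, 5.60 and 1.04 on the control arrays and 3.80, 6.64 and 5.11 on the sunitinib arrays. The groups overlapped, and their means differed by 2.39, the largest rise among the 237 tested miRNAs. The outcome of the test for miR-5110 is not given here. Its high control value came from replicate 2, as did its highest sunitinib value, and the same arrays were high for miR-5119. miR-5121 and miR-7224-3p were each detected on 1 control and 3 sunitinib arrays. Both were higher on every sunitinib array than on any control array, as were 18.1% of all tested miRNAs. They were picked by their detection calls, so this order is largely set by that choice and is no result. Their highest signals, 3.33 and 3.24, lay at the level of the dimmest members. miR-6973b-5p was detected on 3 control and 1 sunitinib arrays, and miR-6238 and miR-6969-5p on 2 control and 0 sunitinib arrays. The signals of these overlapped between groups. miR-6973b-5p had 2.95, 2.99 and 3.05 in control and 2.33, 3.03 and 3.08 in sunitinib. miR-6238 had 2.94, 2.80 and 2.80 against 2.25, 2.95 and 2.84. How often calls differ in this way over all miRNAs is not given here. miR-6538, detected on 5 arrays, had 2.82, 3.07 and 3.04 in control and 4.50, 3.89 and 3.95 in sunitinib, with the groups apart by 1.14 in the means; it was well above background on 2 arrays and was not tested.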
